A study of Mus musculus with 8 samples.

Results

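Hepatocytes secrete most of the complement and clotting proteins of the plasma, and 40 genes that encode such proteins were followed in mouse liver RNA. They were chosen by name, 20 for complement and 20 for coagulation and fibrinolysis, and all 40 were found among the 13703 rows of the deposited expression table. The 8 libraries came from livers of mice with loxP-flanked Bicd2 alleles (Bicd2 fl/fl). In 4 libraries, labelled Alb-Cre, the mice also carried a Cre recombinase driven by the albumin promoter, which is active in hepatocytes. The 4 libraries labelled Alb-WT are those set against it. Every mouse of both groups had been given the S-100 model of autoimmune hepatitis (AIH), in which a soluble liver homogenate fraction in complete Freund's adjuvant is injected into the abdomen. A dose of 2.5 mg was given each week for 3 weeks, and the livers were collected 2 weeks later. No untreated liver was analysed here. Age, sex and whether each library came from its own mouse are not given in the labels, so p-values measure the spread between these libraries, which may be technical.

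Complement works as a cascade of proteases. The classical and lectin pathways recognise antibody or sugars and cut C4 and C2, the alternative pathway amplifies the cleavage of C3, and the terminal components from C5 to C9 assemble a pore in the target membrane. Coagulation is a second cascade, in which the extrinsic and contact routes activate factor X and thrombin, and thrombin turns fibrinogen into fibrin. Antithrombin, protein C and protein S restrain it, and plasmin dissolves the clot. Many of these genes belong to the acute phase response of hepatocytes, and fibrinogen is among the proteins of that response that interleukin-6 raises.

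Expression was given as FPKM, the number of sequenced fragments scaled by gene length and library size. Fragments recovered from the FPKM steps came to between 32524822 and 38893677 per library over the listed genes. The targeted gene Bicd2 had 0.705, 0.568, 0.509 and 0.732 FPKM in Alb-Cre replicates 1 to 4, against 2.46, 3.02, 2.80 and 3.11 FPKM in Alb-WT replicates 1 to 4. All 4 Alb-Cre values lay below all 4 Alb-WT values (log2 fold change -1.24, SE 0.08, limma adjusted p = 7.25e-05, with an exact two-sided permutation p of 0.0286, the smallest that 70 assignments allow). Alb-Cre replicate 4 carried low Bicd2 like the rest of its group but otherwise stood apart. Its expression profile over all 13703 rows, before any filter, correlated at 0.966 to 0.968 with Alb-Cre replicates 1 to 3 and at 0.980 to 0.982 with the Alb-WT libraries, while Alb-Cre replicates 1 to 3 correlated at 0.995 to 0.997 among themselves. Results on the 40 genes are therefore also given without that library where this changed the call. The 8 hepatocyte markers, Alb and Ttr among them, were abundant in every library. Their sum was 38127 FPKM in Alb-Cre replicate 4, between 47312 and 49145 FPKM in the other Alb-Cre libraries, and between 46289 and 47051 FPKM in Alb-WT livers.

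All 40 genes passed the filter, an average of 0.5 FPKM or more over the 8 libraries. Their mean levels over the 8 libraries ran from 2.76 FPKM for Cfb to 3525 FPKM for Fgg, and 28 of them were at 100 FPKM or more. The fewest fragments behind a value were 171 and the most 740265. Differences were tested as log2(FPKM + 1), and a gene was called at a limma adjusted p under 0.05 over all 11077 rows tested. Of the 40 genes, 2 rose in Alb-Cre livers (5%, against 8.48% of all rows tested) and 10 fell (25.0%, against 23.3%). Together 30.0% of the 40 were called and 31.8% of all rows tested, so the share of called genes was near the background and is no result about the set. Their median log2 fold change was -0.16, and that of all rows tested was -0.13. Among rows averaging 5 FPKM or more, 2 and 12 of 39 of these genes were called higher and lower, against 16.4% and 20.6% of 4754 such rows.

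The values of the 4 Alb-Cre and 4 Alb-WT libraries did not overlap for 22 of the 40 genes. Of these, 3 were higher in Alb-Cre livers (7.5%, against 9.27% of all rows and 16.9% of rows at 5 FPKM or more) and 19 were lower (47.5%, against 21.4% and 19.1%). Leaving out Alb-Cre replicate 4 raised the calls among the 40 genes to 8 higher and 24 lower, 20% and 60%, where 15.2% and 46.1% of all rows were called. Without that library the median log2 fold change was -0.16 for all rows tested and -0.15 for the 40 genes. The falls then called for F2, F9, C6, Hc, C4bp, Proc and Serpinf2 were no larger than that median of all rows. The direction of calls moved with the scaling. With median-of-ratios scaling 4 of the 40 genes were called higher and 7 lower, because F11 and Cpb2 joined the rises and Plg, F12 and F13b left the falls. The median of all rows moved to -0.01 under that scaling, and the share of lower calls over all rows was 49.0%, against 73.3% as deposited.

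All 4 hepatocyte genes of the classical pathway fell in Alb-Cre livers, and Alb-Cre replicate 4 behaved like its group. C4b, which encodes complement C4, the shared substrate of the classical and lectin proteases, had 239, 241, 255 and 247 FPKM in Alb-Cre livers, against 397, 386, 398 and 406 FPKM in Alb-WT livers. Its mean was 245 ± 7.03 FPKM in Alb-Cre and 397 ± 8.27 FPKM in Alb-WT livers (SD, n = 4 each). The 2 sets of values lay far apart relative to their spread, with a log2 fold change of -0.69 (SE 0.06, limma adjusted p = 0.000255). C1s1, the gene for the C1s protease that cuts C4 and C2, had 109.5, 104, 109 and 105 FPKM in Alb-Cre livers, against 157, 145, 156 and 145 FPKM in Alb-WT livers. The groups did not overlap (log2 fold change -0.49, SE 0.06, limma adjusted p = 0.00117).

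C1ra, encoding the C1r protease that activates C1s, had 77.1, 77.3, 84.2 and 90.2 FPKM in Alb-Cre livers, against 112, 118, 113 and 117 FPKM in Alb-WT livers (log2 fold change -0.48, SE 0.07, limma adjusted p = 0.00241). C2, which supplies the protease of the C3 convertase, was far less abundant. It had 5.98, 5.28, 5.72 and 6.62 FPKM in Alb-Cre livers, against 8.88, 8.38, 8.45 and 9.02 FPKM in Alb-WT livers (log2 fold change -0.49, SE 0.07, limma adjusted p = 0.00271). For both genes every Alb-Cre library lay below every Alb-WT library. All 4 calls held under each of the 17 other settings tried, including the scaling that centred all rows near 0. Mouse C4b has a close relative in C4a, as have C1ra in C1rb and C1s1 in C1s2, and how the authors' counting split reads between such copies is not known. C4a itself stood at 5.02, 4.93, 4.27 and 13.1 FPKM in Alb-Cre livers, against 3.69, 3.92, 3.72 and 3.97 FPKM in Alb-WT livers, and was not called (limma adjusted p = 0.133). Without Alb-Cre replicate 4 it was called higher (0.25, limma adjusted p = 0.0082), in the opposite direction to C4b.

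C1 inhibitor fell with the proteases it restrains. Serping1 had 412, 462, 420.0 and 496 FPKM in Alb-Cre livers, against 618, 663, 632 and 624 FPKM in Alb-WT livers. The mean was 448 ± 39.2 FPKM in Alb-Cre and 634 ± 20 FPKM in Alb-WT livers (SD, n = 4 each), with no overlap (log2 fold change -0.50, SE 0.08, limma adjusted p = 0.00387), and the call held under all 17 other settings. Among the inhibitors this was the 1 call of 4. Cfi, the protease that cuts C3b and C4b, and Vtn, which blocks insertion of the terminal complex, were lower in every Alb-Cre than in every Alb-WT library but were not called (log2 fold changes -0.18 and -0.13, limma adjusted p = 0.0603 and 0.232). Without replicate 4 Cfi was called lower (-0.18, limma adjusted p = 0.0067). C4bp, whose protein holds C4b for factor I, averaged 131 ± 19.2 FPKM in Alb-Cre and 135 ± 5.19 FPKM in Alb-WT livers, with overlapping values (log2 fold change -0.06, limma adjusted p = 0.67). Its highest value, 158 FPKM, was that of Alb-Cre replicate 4, without which C4bp was called lower (-0.15, limma adjusted p = 0.0236).

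The mannose-binding lectins went the other way. These proteins bind microbial sugars and carry the MASP proteases, and their genes Mbl1 and Mbl2 were the 2 of the 40 called higher. Mbl2 had 580.0, 559, 552 and 326 FPKM in Alb-Cre livers, against 323, 318, 319 and 311 FPKM in Alb-WT livers. Replicates 1 to 3 of Alb-Cre were far above Alb-WT, while replicate 4 lay only just above the highest Alb-WT library (log2 fold change 0.63, SE 0.17, limma adjusted p = 0.0266). Without replicate 4 the log2 fold change was 0.82 (limma adjusted p = 4.99e-08). Mbl1 had 206, 186, 191 and 168 FPKM in Alb-Cre livers, against 156, 143, 150.2 and 159 FPKM in Alb-WT livers (log2 fold change 0.30, SE 0.08, limma adjusted p = 0.0217). No Alb-Cre value overlapped an Alb-WT value for either lectin.

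Both lectin calls were fragile. The call for Mbl2 was lost without any 1 of Alb-Cre replicates 1 to 3 or any 1 of the 4 Alb-WT libraries, with limma adjusted p between 0.0617 and 0.075, and after gene length correction (0.0534). The call for Mbl1 was lost without Alb-Cre replicate 1 or 3 or Alb-WT replicate 1, 2 or 3 (limma adjusted p between 0.0532 and 0.0645). The proteases of the pathway were not called. Masp1 averaged 14.4 ± 0.429 FPKM in Alb-Cre and 15.9 ± 0.294 FPKM in Alb-WT livers without overlap (log2 fold change -0.13, limma adjusted p = 0.0822). Masp2, which cuts C4 and C2, averaged 36.4 ± 2.73 FPKM in Alb-Cre and 34.4 ± 2.75 FPKM in Alb-WT livers (SD, n = 4 each), a difference within the spread.

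**Figure D1:**
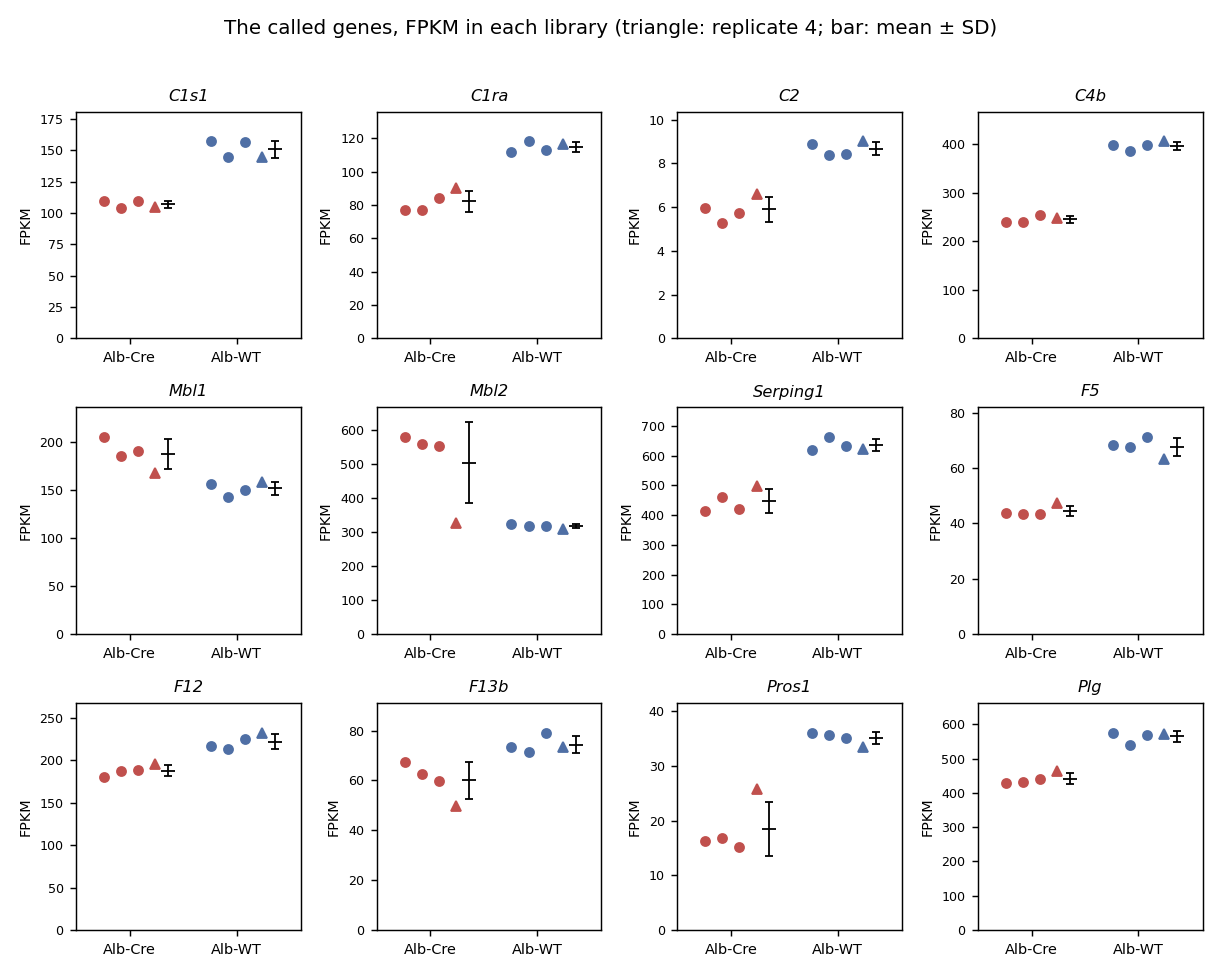
FPKM of the 12 called genes in each of the 8 libraries, Alb-Cre on the left and Alb-WT on the right of each panel. Circles are replicates 1 to 3, triangles replicate 4 and bars the mean ± SD. In every panel the groups are apart, and the Alb-Cre triangle is nearest to Alb-WT for Mbl2, at 326 FPKM, and leaves its group for Pros1, at 25.9 FPKM.

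At the centre of the cascade neither gene was called over all 8 libraries. C3, the protein on which all 3 pathways converge, had 1479, 1499, 1546 and 2399.6 FPKM in Alb-Cre livers, against 2097, 2003, 2079.7 and 2078 FPKM in Alb-WT livers. Replicates 1 to 3 of Alb-Cre were below every Alb-WT library and replicate 4 above every one (log2 fold change -0.29, SE 0.16, limma adjusted p = 0.183). Without replicate 4 the log2 fold change was -0.45 (limma adjusted p = 3.83e-06). Cfb, which encodes the protease of the alternative C3 convertase, had 1.85, 2.37, 1.96 and 3.10 FPKM in Alb-Cre livers, against 3.22, 3.21, 3.73 and 2.65 FPKM in Alb-WT livers. The groups overlapped through replicate 4 of each (log2 fold change -0.35, SE 0.13, limma adjusted p = 0.0648), and without Alb-Cre replicate 4 the log2 fold change was -0.46 (limma adjusted p = 0.00202).

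The terminal pathway split into components that were high and components that were low in Alb-Cre replicates 1 to 3, and replicate 4 was below all 7 other libraries for each of its 6 genes. C8g, encoding the gamma chain of C8, had 255, 239, 249.6 and 138 FPKM in Alb-Cre livers, against 145, 148, 143 and 158 FPKM in Alb-WT livers (log2 fold change 0.52, SE 0.18, limma adjusted p = 0.0563). Its partner C8b had 178, 189.9, 184 and 106 FPKM in Alb-Cre livers, against 129.6, 128, 131 and 132 FPKM in Alb-WT livers. C8a, the alpha chain, had 287, 288, 289 and 225 FPKM in Alb-Cre livers, against 274, 271, 269 and 266 FPKM in Alb-WT livers. The 3 chains of the same protein thus differed in size of shift. Without replicate 4 the log2 fold change was 0.74 for C8g, 0.50 for C8b and 0.09 for C8a (limma adjusted p = 5.29e-07, 2.87e-06 and 0.0471). The ratio of C8g to C8a FPKM was 0.83 to 0.891 in Alb-Cre replicates 1 to 3, 0.612 in Alb-Cre replicate 4 and 0.53 to 0.595 in Alb-WT livers.

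C9, which polymerises into the pore, had 472, 490.1, 443 and 225 FPKM in Alb-Cre livers, against 395, 394, 374 and 375 FPKM in Alb-WT livers. Replicate 4 was far below every other library and replicates 1 to 3 above every Alb-WT library. The log2 fold change over all libraries was 0.02 with an SE of 0.23, and without replicate 4 it was 0.28 (limma adjusted p = 0.000455). Hc, the mouse gene for C5, and C6 showed the other pattern. Hc had 183, 190.5, 188 and 163 FPKM in Alb-Cre livers, against 216, 207, 214 and 200.2 FPKM in Alb-WT livers, with every Alb-Cre value lower (log2 fold change -0.21, limma adjusted p = 0.0524), and was called lower without replicate 4 (-0.16, limma adjusted p = 0.00846). C6 averaged 106 ± 10.0 FPKM in Alb-Cre and 123 ± 5.27 FPKM in Alb-WT livers, also without overlap and not called (limma adjusted p = 0.077), and C6 too was called lower without replicate 4 (-0.14, limma adjusted p = 0.0281).

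Of prothrombin and the extrinsic and common factors, F5 fell. Factor V, the cofactor of factor Xa, is needed to make thrombin. F5 had 43.8, 43.4, 43.4 and 47.4 FPKM in Alb-Cre livers, against 68.4, 67.7, 71.2 and 63.2 FPKM in Alb-WT livers. Its mean was 44.5 ± 1.94 FPKM in Alb-Cre and 67.6 ± 3.33 FPKM in Alb-WT livers (SD, n = 4 each), without overlap (log2 fold change -0.59, SE 0.06, limma adjusted p = 0.000544), and the call held under all 17 other settings. The rest of its group was not called over all 8 libraries. F2, which encodes prothrombin, averaged 282 ± 10.9 FPKM in Alb-Cre and 309 ± 5.08 FPKM in Alb-WT livers without overlap (log2 fold change -0.13, limma adjusted p = 0.123), and was called lower without Alb-Cre replicate 4 (-0.13, limma adjusted p = 0.0269). F7, the factor that starts the extrinsic route, and F10, where the routes meet, overlapped between groups, with means of 53.4 ± 6.12 and 166 ± 14.2 FPKM in Alb-Cre livers against 56.7 ± 4.26 and 157 ± 5.17 FPKM in Alb-WT livers.

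Of the 5 intrinsic and contact factors, F12 was called. Factor XII, which starts the contact route, had 181, 187, 189 and 195 FPKM in Alb-Cre livers, against 217, 214, 226 and 233 FPKM in Alb-WT livers (log2 fold change -0.24, SE 0.06, limma adjusted p = 0.0223). The groups did not overlap, but the call was lost under 9 of the 17 other settings, among them median-of-ratios scaling (log2 fold change -0.07, limma adjusted p = 0.498) and leaving out any 1 of Alb-Cre replicates 1 to 3 or Alb-WT replicate 1, 3 or 4. F9, the haemophilia B factor, averaged 87.6 ± 3.90 FPKM in Alb-Cre and 99.3 ± 4.42 FPKM in Alb-WT livers (SD, n = 4 each), also without overlap (limma adjusted p = 0.058), and was called lower without Alb-Cre replicate 4 (-0.16, limma adjusted p = 0.0195). Kng1, the precursor of bradykinin, had 654, 663, 686 and 894 FPKM in Alb-Cre livers, against 886, 899, 863 and 877 FPKM in Alb-WT livers. Replicate 4 was in the Alb-WT range and the others below it, so the log2 fold change was -0.30 (limma adjusted p = 0.0653) over all libraries and -0.40 (limma adjusted p = 9.25e-06) without replicate 4. Kng1 has a close relative in Kng2, which averaged 107 ± 30.6 FPKM in Alb-Cre and 123 ± 2.43 FPKM in Alb-WT livers (limma adjusted p = 0.271), and which was called lower without Alb-Cre replicate 4 (-0.42, limma adjusted p = 2.88e-05).

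F11 and Klkb1 are related protease genes and neighbours on the genome, with start sites 32.8 kb apart, and they parted in Alb-Cre replicate 4. F11, for factor XI, had 33.2, 33.3, 36.6 and 47.9 FPKM in Alb-Cre livers, against 30.9, 33.4, 29.4 and 28.7 FPKM in Alb-WT livers. Klkb1, for plasma prekallikrein, had 40.3, 40.4, 35.6 and 12.8 FPKM in Alb-Cre livers, against 39.3, 41.4, 41.4 and 35.3 FPKM in Alb-WT livers. Replicate 4 held the highest F11 and the lowest Klkb1 of the 8 libraries. The ratio of F11 to Klkb1 FPKM was 0.824, 0.826, 1.03 and 3.75 in Alb-Cre replicates 1 to 4 and lay between 0.711 and 0.812 in Alb-WT livers. Neither gene was called over all 8 libraries (limma adjusted p = 0.0929 for F11 and 0.35 for Klkb1), and F11 was called higher with median-of-ratios scaling (limma adjusted p = 0.00723), after gene length correction (0.0236) and without replicate 4 (0.0421).

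The 250 bases before each of these 2 start sites are shown because the genes lie side by side and parted in Alb-Cre replicate 4. They are RefSeq sequence of mouse GRCm38.p6 on the minus strand, F11 at chr8:45262032-45262281 and Klkb1 at chr8:45294836-45295085, both upstream of the first exon. Capitals mark the letters TTGCNNAA of C/EBP factors, liver-rich regulators of acute phase genes, which stand on the opposite strand in both, and in Klkb1 also TATAAA, likewise on the opposite strand.
F11: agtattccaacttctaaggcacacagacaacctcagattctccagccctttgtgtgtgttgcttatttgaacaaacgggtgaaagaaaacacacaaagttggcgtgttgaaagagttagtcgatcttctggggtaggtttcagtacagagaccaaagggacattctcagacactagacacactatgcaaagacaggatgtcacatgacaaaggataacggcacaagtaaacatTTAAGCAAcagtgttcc
Klkb1: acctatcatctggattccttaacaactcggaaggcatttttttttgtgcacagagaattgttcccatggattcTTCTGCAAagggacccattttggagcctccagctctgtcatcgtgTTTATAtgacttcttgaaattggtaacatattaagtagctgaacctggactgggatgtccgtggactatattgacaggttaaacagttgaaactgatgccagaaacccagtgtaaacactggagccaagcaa
The match ends 10 bases before the start in F11 and 170 bases before it in Klkb1.

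The fibrinogen chains were split by Alb-Cre replicate 4. Fga, Fgb and Fgg encode the alpha, beta and gamma chains of fibrinogen, the precursor of fibrin, and lie in 1 cluster, with start sites 18.4 kb apart for Fgg and Fga and 23.7 kb apart for Fga and Fgb. Fga had 2519, 2588, 2829 and 6281 FPKM in Alb-Cre livers, against 3549.7, 3422, 3512 and 3386 FPKM in Alb-WT livers. Fgb had 1858, 1786, 1870.4 and 4184 FPKM in Alb-Cre livers, against 2405, 2447, 2363 and 2411 FPKM in Alb-WT livers. Fgg had 3001, 2958, 2949 and 5664 FPKM in Alb-Cre livers, against 3500.1, 3335, 3416 and 3379.6 FPKM in Alb-WT livers. For each chain Alb-Cre replicates 1 to 3 were below every Alb-WT library and replicate 4 was above every one. Over all 8 libraries none was called (log2 fold changes of -0.08, -0.09 and 0.03, limma adjusted p = 0.836, 0.797 and 0.911). Without replicate 4 all 3 chains were called lower, at -0.39, -0.39 and -0.20 (limma adjusted p = 5.33e-05, 1.05e-05 and 0.00103). The 3 chains together made up 1.66% to 1.74% of the summed FPKM in Alb-Cre replicates 1 to 3, 4.04% in Alb-Cre replicate 4 and 2.24% to 2.37% in Alb-WT livers.

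The sequences before the 3 fibrinogen start sites are printed because the chains shared 1 pattern over the libraries. They are RefSeq sequence of mouse GRCm38.p6, Fga at chr3:83025903-83026152 on the plus strand, Fgb at chr3:83049864-83050113 on the minus strand and Fgg at chr3:83007474-83007723 on the plus strand, each the 250 bases upstream of the first exon. Capitals mark CTGGGAA, the interleukin-6 response element named for fibrinogen genes, TTCNNNGAA of STAT factors, TTGCNNAA of C/EBP factors and GTTAATNAT of HNF1, a hepatocyte regulator, searched on both strands.
Fga: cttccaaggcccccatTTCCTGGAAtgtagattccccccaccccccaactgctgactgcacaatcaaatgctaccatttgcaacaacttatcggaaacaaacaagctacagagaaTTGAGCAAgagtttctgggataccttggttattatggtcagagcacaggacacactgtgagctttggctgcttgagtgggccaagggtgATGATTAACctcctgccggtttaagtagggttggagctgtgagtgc
Fgb: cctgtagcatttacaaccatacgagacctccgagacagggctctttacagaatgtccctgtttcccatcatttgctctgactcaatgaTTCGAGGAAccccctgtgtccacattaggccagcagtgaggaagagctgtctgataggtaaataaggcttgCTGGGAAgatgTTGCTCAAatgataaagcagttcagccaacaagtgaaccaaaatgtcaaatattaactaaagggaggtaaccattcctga
Fgg: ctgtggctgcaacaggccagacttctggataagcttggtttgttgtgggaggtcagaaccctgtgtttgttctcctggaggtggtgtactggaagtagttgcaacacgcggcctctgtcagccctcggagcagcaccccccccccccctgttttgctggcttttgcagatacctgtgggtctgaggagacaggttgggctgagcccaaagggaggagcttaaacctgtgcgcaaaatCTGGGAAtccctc
The letters CTGGGAA stand in Fgb, 91 to 85 bases before the start, and in Fgg, 13 to 7 bases before it. Fga and Fgb hold TTCNNNGAA and TTGCNNAA, and Fga holds GTTAATNAT on the opposite strand, 46 to 38 bases before the start.

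Such windows were at hand for 31 of the 40 genes and for 27025 promoters of the mouse genome. CTGGGAA was found in 5 of the 31 (16.1%) and in 9.08% of all promoters, TTCNNNGAA in 6 (19.4%) and 7.18%, and TTGCNNAA in 8 (25.8%) and 9.55%. The letters GTTAATNAT of HNF1 stood in 4 (C4bp, F13b, Fga and Hc; 12.9%) and in 0.781% of all promoters, and TATAAA in 3 (9.68%) and 13%. Motifs could overlap one another and both strands were searched. These are matches of letters, and no binding was measured. Masp1, C2, C4b, Cfb, Cfi, Serping1, Kng1, Proc and Plg had no entry.

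**Figure D2:**
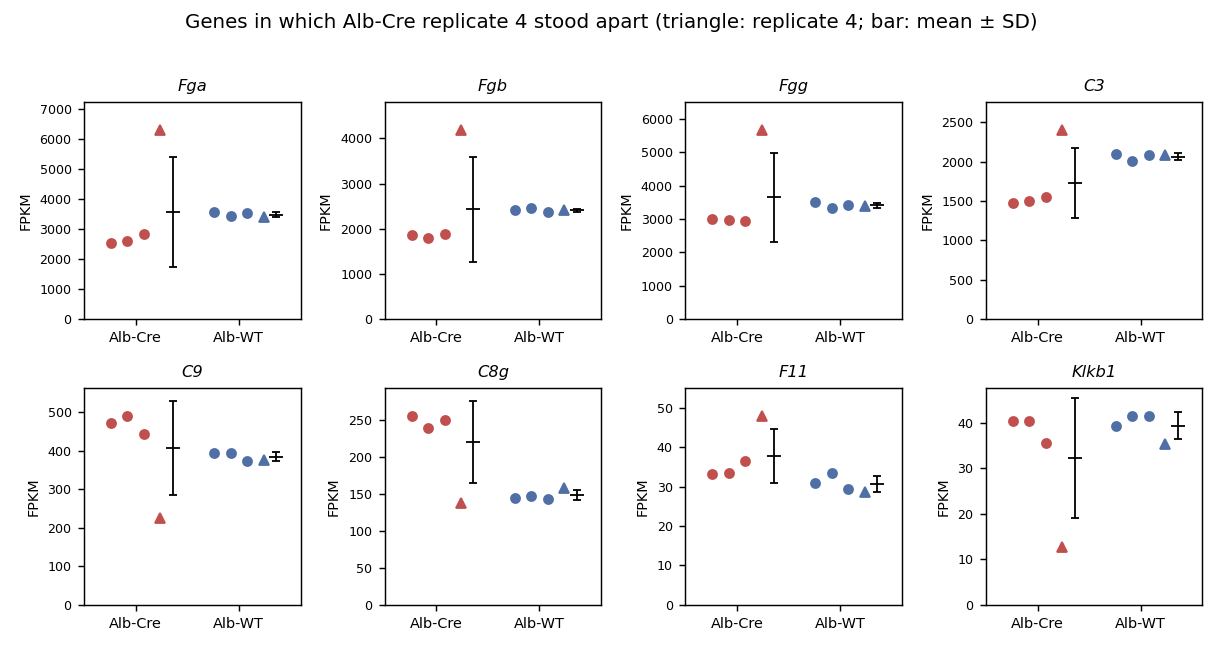
FPKM in each library for 8 genes in which Alb-Cre replicate 4 (red triangle) stood apart, with Alb-Cre left of Alb-WT in each panel and bars for the mean ± SD. Fga, Fgb, Fgg, C3 and F11 were highest in that library and C9, C8g and Klkb1 lowest, with Klkb1 at 12.8 FPKM.

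F13b, the carrier subunit of the factor that crosslinks fibrin, fell in Alb-Cre livers. It had 67.5, 62.7, 59.7 and 49.8 FPKM in Alb-Cre livers, against 73.2, 71.4, 79.1 and 73.5 FPKM in Alb-WT livers, with no overlap (log2 fold change -0.31, SE 0.09, limma adjusted p = 0.0354). The call was lost under 9 of the 17 other settings, among them median-of-ratios scaling (log2 fold change -0.15, limma adjusted p = 0.431) and leaving out Alb-Cre replicate 2 or 3 or any 1 of the 4 Alb-WT libraries. Of the group's 4 genes it was the 1 called.

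Pros1 had the largest log2 fold change of the 40 genes over all 8 libraries. Protein S, its product, is the cofactor of activated protein C and also circulates bound to C4b-binding protein. Pros1 had 16.2, 16.7, 15.2 and 25.9 FPKM in Alb-Cre livers, against 36.1, 35.6, 35.1 and 33.5 FPKM in Alb-WT livers. The mean was 18.5 ± 4.95 FPKM in Alb-Cre and 35.1 ± 1.11 FPKM in Alb-WT livers (SD, n = 4 each), and even replicate 4 stayed below every Alb-WT library (log2 fold change -0.92, SE 0.15, limma adjusted p = 0.00362). The call held under all 17 other settings, with log2 fold changes from -1.08 to -0.76. The other anticoagulants were not called over all 8 libraries. Proc, for protein C, averaged 159.8 ± 15.2 FPKM in Alb-Cre and 185 ± 6.25 FPKM in Alb-WT livers, with overlap between replicate 3 of Alb-Cre and replicate 2 of Alb-WT (log2 fold change -0.21, limma adjusted p = 0.0711), and Proc was called lower without Alb-Cre replicate 4 (-0.15, limma adjusted p = 0.0252).

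Serpinc1, for antithrombin, the main inhibitor of thrombin and factor Xa, averaged 202 ± 7.71 FPKM in Alb-Cre and 214 ± 3.30 FPKM in Alb-WT livers (log2 fold change -0.08, limma adjusted p = 0.297). Serpind1, for heparin cofactor II, had 221, 226, 215 and 142 FPKM in Alb-Cre livers, against 242, 241, 229.8 and 226 FPKM in Alb-WT livers. Both were lower in Alb-Cre livers without overlap, for Serpind1 by a margin smaller than the digits shown, and for that gene replicate 4 was far below the rest (limma adjusted p = 0.198). The 6 genes F2, F7, F9, F10, Proc and Pros1, whose proteins depend on vitamin K, were grouped by textbook knowledge after their values were seen. Of these, Pros1 was called over all 8 libraries. Without Alb-Cre replicate 4, F2, F9, Proc and Pros1 were called lower, as were 46.1% of all rows tested. The falls of F2, F9 and Proc were then no larger than the median of all rows, -0.16. Proz, a vitamin K-dependent gene of the wider list below, was not called over all 8 libraries (limma adjusted p = 0.803). Without Alb-Cre replicate 4 Proz was called higher (0.13, limma adjusted p = 0.0422).

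In fibrinolysis Plg fell, and Serpinf2 and Cpb2 were not called over all 8 libraries. Plasminogen, the precursor of the protease that digests fibrin, had 430.3, 431, 442 and 465 FPKM in Alb-Cre livers, against 576, 541, 569 and 573 FPKM in Alb-WT livers. The mean was 442 ± 16.0 FPKM in Alb-Cre and 565 ± 16.3 FPKM in Alb-WT livers (SD, n = 4 each), with no overlap (log2 fold change -0.35, SE 0.07, limma adjusted p = 0.00711). With median-of-ratios scaling Plg was at -0.19 and was not called (limma adjusted p = 0.103). Serpinf2, for the antiplasmin that inactivates plasmin, averaged 368 ± 25.7 FPKM in Alb-Cre and 392 ± 15.3 FPKM in Alb-WT livers, with overlap (log2 fold change -0.09, limma adjusted p = 0.369), and was called lower without Alb-Cre replicate 4 (-0.13, limma adjusted p = 0.0455). Cpb2, whose product trims fibrin so that plasmin binds less, had 354, 374, 346 and 529 FPKM in Alb-Cre livers, against 314, 346, 323 and 319 FPKM in Alb-WT livers (log2 fold change 0.28, SE 0.13, limma adjusted p = 0.134), and was called higher with median-of-ratios scaling (0.44, limma adjusted p = 0.0143) and without replicate 4 (0.14, limma adjusted p = 0.0293).

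Alb-Cre replicate 4 departed from its group in both directions. It was above all 7 other libraries for 7 of the 40 genes (C3, C4bp, F11, Fga, Fgb, Fgg and Cpb2) and below all 7 for 14, the 6 terminal genes among them. The share above was 17.5%, against 26.0% of all rows tested and 28.8% of rows averaging 5 FPKM or more. The share below was 35%, against 12.65% and 17.9%. Both directions together made 52.5% of the 40 genes outside the range of the other libraries, against 38.7% of all rows tested and 46.7% of rows averaging 5 FPKM or more. Alb-Cre replicates 1 to 3 lay below every Alb-WT library for 25 genes (62.5%, against 46.0% of all rows tested and 37.3% of those averaging 5 FPKM or more) and above every one for 7 (17.5%, against 14.6% and 25.9%). In 12 of the 40 genes replicate 4 lay on the other side of the Alb-WT mean from the mean of replicates 1 to 3 (30.0%, against 38.8% of all rows). The 40 genes together made up 3.93% to 4.08% of the summed FPKM in Alb-Cre replicates 1 to 3, 6.66% in Alb-Cre replicate 4 and 4.95% to 5.19% in Alb-WT livers.

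**Figure D3:**
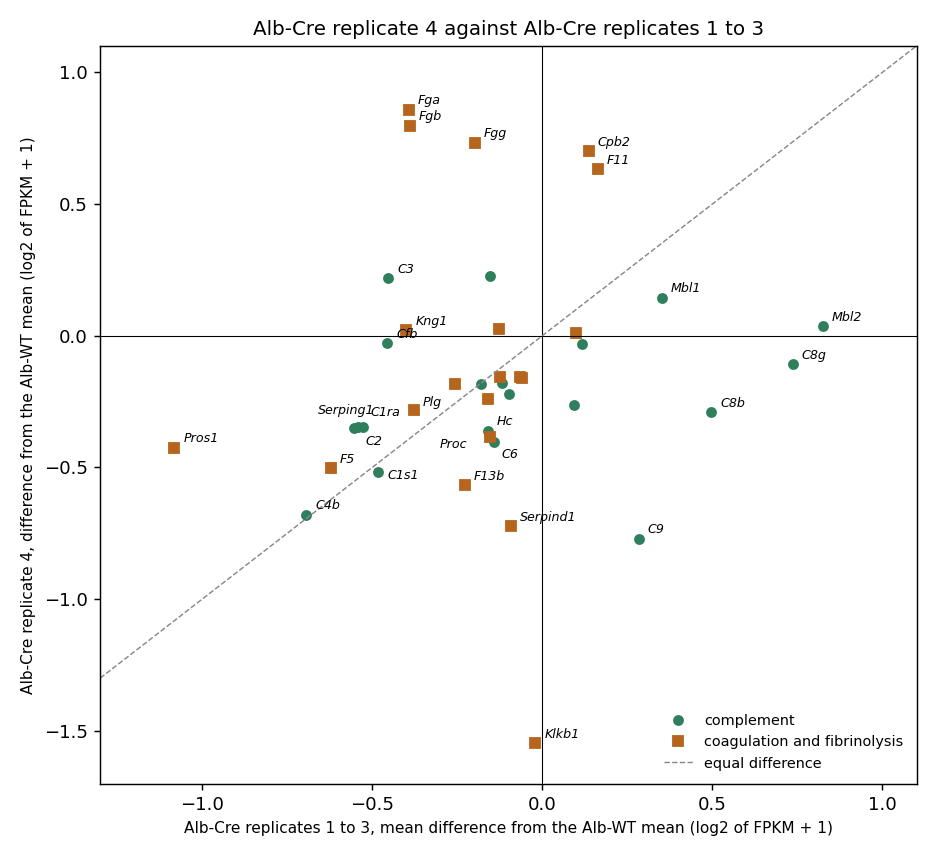
For each of the 40 genes, the difference of Alb-Cre replicate 4 from the Alb-WT mean (vertical, log2 of FPKM + 1) against that of the mean of Alb-Cre replicates 1 to 3 (horizontal); circles are complement and squares coagulation genes, and the dashed line marks equal differences. C4b, C1s1 and F5 sit near the line, the fibrinogen chains sit at the upper left, and Klkb1 sits lowest, at -1.55 vertically.

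A wider list of 65 complement, coagulation and fibrinolysis genes was read beside the 40, of which 60 were in the table and 52 passed the filter. Of the 52, 5 rose (9.62%, against 8.48% of all rows tested) and 17 fell (32.7%, against 23.3%). C1rl, a relative of C1r, had 47.8, 47.5, 51.1 and 48.5 FPKM in Alb-Cre livers, against 39.1, 37.6, 36.4 and 38.6 FPKM in Alb-WT livers (log2 fold change 0.35, limma adjusted p = 0.0036), so it rose where C1ra and C1s1 fell. Lman1, a receptor that carries factors V and VIII out of the endoplasmic reticulum, averaged 30.7 ± 2.34 FPKM in Alb-Cre and 25.0 ± 0.646 FPKM in Alb-WT livers (log2 fold change 0.28, limma adjusted p = 0.0166), a call lost with a common FPKM sum (0.114) and without Alb-WT replicate 3 (0.0522). Serpine2, an inhibitor of thrombin and plasminogen activators, averaged 2.23 ± 0.552 FPKM in Alb-Cre and 0.675 ± 0.0275 FPKM in Alb-WT livers (log2 fold change 0.93, limma adjusted p = 0.00174).

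The falls among these genes included soluble lectins and a carboxypeptidase subunit. Colec11, a collectin of the lectin pathway, averaged 11.5 ± 1.6 FPKM in Alb-Cre and 19.0 ± 0.937 FPKM in Alb-WT livers (log2 fold change -0.69, limma adjusted p = 0.00225). Fcna, a ficolin that also carries MASP proteases, averaged 19.7 ± 2.73 FPKM in Alb-Cre and 26.0 ± 0.976 FPKM in Alb-WT livers (log2 fold change -0.39, limma adjusted p = 0.0167), a call lost with median-of-ratios scaling (0.159). The mannose-binding lectins were thus higher while the collectin and the ficolin were lower. Colec11 was also on the list of stellate markers read below, and which cells the RNA of these lectins came from was not measured. Cpn2, the regulatory subunit of the carboxypeptidase that inactivates anaphylatoxins, and Hrg, a plasma protein that binds plasminogen, were lower too (log2 fold changes -0.29 and -0.31, limma adjusted p = 0.0156 and 0.021). The call of Hrg was lost without Alb-Cre replicate 1 or 2 or any 1 of the Alb-WT libraries, and that of Cpn2 without Alb-WT replicate 3 (limma adjusted p between 0.0512 and 0.0664). Both calls were lost with median-of-ratios scaling, and that of Cpn2 also after gene length correction (log2 fold change -0.14, limma adjusted p = 0.323).

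Other falls were in genes known from macrophages and other blood cells. Vsig4, a complement receptor of Kupffer cells, averaged 24.3 ± 4.96 FPKM in Alb-Cre and 51.0 ± 1.04 FPKM in Alb-WT livers (log2 fold change -1.06, limma adjusted p = 0.000716). F13a1, the catalytic subunit of factor XIII, averaged 0.189 ± 0.142 FPKM in Alb-Cre and 0.962 ± 0.0605 FPKM in Alb-WT livers (log2 fold change -0.73, limma adjusted p = 0.00126). C3ar1, the C3a receptor, Plaur, the urokinase receptor, and Cfp, which encodes properdin, fell as well (log2 fold changes -0.55, -0.77 and -1.21, limma adjusted p = 0.0157, 0.0133 and 0.0193). Plaur averaged 0.272 FPKM in Alb-Cre and 1.12 FPKM in Alb-WT livers. F13a1 and Plaur passed the filter of 0.5 FPKM only through Alb-WT, so only a fall could be called for them. Their fewest fragments in a library were 10 and 4. Cfp had 12.6, 12.2, 13 and 36.1 FPKM in Alb-Cre livers, against 39.3, 38.9, 37.8 and 41.8 FPKM in Alb-WT livers, and its call was lost without any 1 of Alb-Cre replicates 1 to 3 or any 1 of Alb-WT replicates 1, 3 and 4 (limma adjusted p between 0.0503 and 0.0579).

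C1q, the recognition part of the classical pathway that is made by macrophages and not by hepatocytes, was read separately after its values were seen. C1qa had 58.8, 62.2, 58.7 and 155 FPKM in Alb-Cre livers, against 143, 152, 149 and 164 FPKM in Alb-WT livers, and C1qb and C1qc had the same shape. All 3 were called lower (log2 fold changes -0.99, -1.02 and -1.13, limma adjusted p = 0.0313, 0.0321 and 0.0343), and each call was lost without any 1 of Alb-Cre replicates 1 to 3 or of the Alb-WT libraries. In Alb-Cre replicate 4 C1q was within the Alb-WT range while C4b, C1s1, C1ra and C2 were below it.

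Markers of other liver cell types moved between the groups as well. All 5 Kupffer cell markers fell, with sums between 118 and 130.5 FPKM in Alb-Cre replicates 1 to 3, of 372 FPKM in Alb-Cre replicate 4, and between 421 and 448 FPKM in Alb-WT livers. The 3 neutrophil markers at hand fell, with sums of 6.36 to 6.71, 80.5 and 251 to 317 FPKM in the same order of libraries, and the 3 platelet markers fell, with sums of 2.09 to 3.21, 5.01 and 18.6 to 24.0 FPKM. The platelet marker Itga2b had 0.313, 0.351, 0.318 and 0.599 FPKM in Alb-Cre livers, against 1.53 to 1.97 FPKM in Alb-WT livers. It passed the filter of 0.5 FPKM only through Alb-WT, so only a fall could be called for it. Of the stellate markers 3 of 6 fell, the lectin genes Colec10 and Colec11 among them, and of the endothelial markers 2 of 5. The 3 cholangiocyte markers tested fell. Of the 3 B and plasma cell markers at hand none was called. Their sums were 2.82 to 3.56 FPKM in Alb-Cre replicates 1 to 3, 14.2 FPKM in replicate 4 and 5.22 to 6.27 FPKM in Alb-WT livers. Of the 8 hepatocyte markers 1, Asgr1, was called higher and none lower. Hnf4a and Apoa1 were lower in every Alb-Cre than in every Alb-WT library but were not called (limma adjusted p = 0.0742 and 0.0586). No marker gene at hand was at 0, but no deposited value was 0 for any gene, so this says nothing about these cell types. The part of these shifts in the values of the complement and coagulation genes was not tested, and in bulk tissue fewer cells of a type and less RNA per cell cannot be told apart.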

How the data were processed

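Bulk RNA sequencing of mouse liver was used, 4 Alb-Cre and 4 Alb-WT libraries grouped and numbered by the sample titles. Per the labels' protocols, Trizol was used for RNA and Illumina protocols for the libraries. A note of 10x Genomics stands in the sample descriptions, which that protocol and a table with 1 column per library do not match. The authors deposited FPKM values, made with HISAT2 2.0.5 per the submitters' processing notes, which list the builds mm39 and hg38 with no role. No counting tool, annotation or strand setting is named in the sources used here, so reads of overlapping antisense genes may be mixed.

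Steps between FPKM values gave whole fragments for 13703 of 13703 rows (tolerance 1e-08). The lengths they imply lay within 1 bp of GENCODE M21 for 94.7% of 13453 genes. In simulated libraries 99.6% of 13610 rows were recovered exactly.

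The test was that of limma 3.58.1 (R 4.3.3; empirical Bayes with trend, genotype as the term) on log2(FPKM + 1), over the 11077 rows averaging 0.5 FPKM or more, with Benjamini-Hochberg adjustment over all of them. A fold change on this scale understates that of low genes. Log2 fold changes are Alb-Cre over Alb-WT. The fit was tested on simulated data. Python 3.11.15 with numpy 2.4.6, pandas 2.3.3 and matplotlib 3.10.9 did the rest. Values in all libraries are given for called genes without overlap and for the member of largest change in a role group with no call, and for others picked after their values were seen. Of the wider list the 12 called genes with the smallest p are named. The 40 genes, the other lists and the tests were chosen with earlier results of these data known. Promoter sequences came from RefSeq (GRCm38.p6), which is not the build in the notes, and were matched by symbol. Alternatives tried were another pseudocount (0.1), other filters (none, or 5 FPKM), a common FPKM sum, median-of-ratios and quantile scaling, leaving out each library, a replicate block and, chosen after seeing the data, a gene length correction and voom on the recovered fragments.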

Additional observations from a re-analysis of the deposited data

Results flagged for a closer look

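In each group of 4 libraries a value was singled out where its gap to the nearest other value took up more of the group's range than Dixon's critical value allows, which chance meets in about 1 of 20 groups. Of 104 gene and group combinations examined 17 met it, all 17 through Alb-Cre replicate 4 and 0 in Alb-WT, so they share 1 library and are not separate observations. That library was the highest of its group in 11 of them and the lowest in 6.

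Among the 40 genes it was highest for Fga (6281 FPKM, with the other Alb-Cre libraries at 2519 to 2829 FPKM), Fgb (4184 FPKM, others 1786 to 1870.4 FPKM), Fgg (5664 FPKM, others 2949 to 3001 FPKM) and C3 (2399.6 FPKM, others 1479 to 1546 FPKM). It was also highest for Kng1 (894 FPKM, others 654 to 686 FPKM), Cpb2 (529 FPKM, others 346 to 374 FPKM), Pros1 (25.9 FPKM, others 15.2 to 16.7 FPKM) and F5 (47.4 FPKM, others 43.4 to 43.8 FPKM). It was lowest for Mbl2 (326 FPKM, others 552 to 580.0 FPKM), C8a (225 FPKM, others 287 to 289 FPKM), C8b (106 FPKM, others 178 to 189.9 FPKM), C8g (138 FPKM, others 239 to 255 FPKM) and Serpind1 (142 FPKM, others 215 to 226 FPKM).

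Among the 12 genes examined in the wider list it was highest for Cfp (36.1 FPKM, others 12.2 to 13 FPKM), Vsig4 (31.8 FPKM, others 21.6 to 22.1 FPKM) and Plaur (0.839 FPKM, others 0.0428 to 0.114 FPKM), and lowest for Serpine2 (1.41 FPKM, others 2.39 to 2.57 FPKM). The rest of the wider list, the C1q genes included, was not examined in this way. Its recovered fragments, 38893677, were the most of the 8 libraries. The part of depth, of the other cell types' markers and of the library's handling in these values was not tested.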

How the results depend on the processing

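Of the 12 called genes, C4b, C1s1, C1ra, C2, Serping1, F5 and Pros1 were called under each of the 17 other settings, and Plg under all but median-of-ratios scaling. Counts of called genes among the 40, 2 higher and 10 lower, were 18 lower with a common FPKM sum, 19 lower with quantile normalization and 4 higher with median-of-ratios scaling. Leaving out 1 library gave 0 to 8 higher and 8 to 24 lower, the most without Alb-Cre replicate 4. Fgg was at 0.03 over all libraries and between -0.20 (without Alb-Cre replicate 4, limma adjusted p = 0.00103) and 0.12 with 1 library left out, and Serpina10 was at 0.17 and between -0.14 (without Alb-Cre replicate 4, limma adjusted p = 0.0269) and 0.30. In the wider list, 5 higher and 17 lower, the higher calls were 3 with a common FPKM sum, 10 with median-of-ratios scaling, 10 with quantile normalization and 9 with gene length correction, and the lower calls were 11 with median-of-ratios scaling. With 1 library left out they ran from 2 to 11 and from 6 to 29.

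Over all rows, 939 higher and 2582 lower, counts were 981 lower among rows at 5 FPKM or more, 623 higher with a common FPKM sum, 1723 and 1658 with median-of-ratios scaling, 1522 and 1478 with quantile normalization and 1631 and 1323 with gene length correction. With 1 library left out they ran from 546 to 1679 and from 1205 to 5112. The share of lower calls, 73.3%, was 55.7% among rows at 5 FPKM or more, 49.3% with quantile normalization and 44.8% with gene length correction. The cause of these shifts was not tested. Same-numbered libraries of the 2 groups did not deviate together (correlations -0.06, -0.05, -0.10 and 0.01). Differently numbered libraries correlated at -0.18 to 0.13, so this check cannot exclude pairing. No label says whether the numbers pair the libraries. With a replicate block, 1 of the 40 genes was called higher and 8 lower, and over all rows 613 and 1631. The block's lost calls included Mbl1, F12 and F13b among the 40 genes, and Lman1, Cpn2 and Hrg in the wider list (limma adjusted p = 0.0545, 0.0525 and 0.0567). Cfb and C2 had the fewest fragments of the 40 genes, from 171 and 684 per library, with SEs of 0.13 and 0.07. The largest SEs of the 40 were those of Klkb1 (0.32), Fga (0.27) and Fgb (0.26).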
